A study of Homo sapiens with 8 samples.

Results

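CTCF peaks on coding exons were examined in HT1080 cells, a human fibrosarcoma cell line, before and after treatment with the curaxin CBL0137. A peak of control cells was placed on a coding exon where its centre lay in the coding sequence (CDS) of a protein-coding gene and more than 1000 bp from every protein-coding transcription start and from every protein-coding gene 3′ end. Of the 47470 CTCF peaks of control cells, 868 met this rule, and they lay in 822 genes. The rule used position only and no measured value.

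CTCF is a zinc finger protein that binds a long, well-defined DNA sequence and, together with cohesin, holds the bases of chromatin loops. Most of its sites lie outside coding sequence, so a site inside a coding exon has to fit both the binding motif and the codons of a protein. Curaxins are small molecules that bind DNA and disturb the contacts between DNA and histones within nucleosomes.

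Chromatin immunoprecipitation with an antibody against CTCF, followed by sequencing (ChIP-seq), was carried out on 8 libraries in 4 groups of 2 replicates each. Control cells gave 2 ChIP and 2 input libraries, and cells that had received CBL0137 (3 µM, 6 h) gave the same. The labels name no vehicle for the control cells. The authors called peaks on both replicates of a condition together, so each peak has a single fold enrichment of ChIP over input and no replicate error, and the depth of the libraries is not known from the peak lists. A peak was called kept where it overlapped any peak of treated cells, and not kept otherwise. The authors also deposited lists of sites at which CTCF was higher in control cells or higher in treated cells. Intervals are 95% intervals that cover counting error only, and they treat neighbouring peaks as independent. No p-value was computed across peaks, which are not replicates.

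The core of the CTCF motif was searched on both strands within 200 bp of each peak centre, as an exact match to CCANNAGNNGGC, in which 8 of 12 positions are fixed. A match was found at 213 of the 868 peaks (24.5%, interval 21.8 to 27.5%), of which 170 lay wholly in coding sequence. Among 162585 windows of the same length centred on coding exons with no control peak, 1.78% held a match. Some wholly coding matches are shown here as examples. Among peaks with such a match, they are those of the 5 kept peaks with the highest control fold enrichment and of 4 of the 5 strongest not kept. They are matches in sequence, and binding at these bases was not measured. Each is read 5′ to 3′ on the strand of the match in hg19, the capitals mark the 12 bases of the core, the coordinates are those of the capitals, and 8 bases of flank stand on either side. This choice was made after the values were seen.
MED15, kept, chr22:20918750-20918761, plus strand: ctgcagctCCAGCAGGTGGCgctgcagc
C1orf216, kept, chr1:36181264-36181275, minus strand: cgctgtctCCAGCAGAGGGCagcaccat
SLC35E2B, kept, chr1:1597309-1597320, minus strand: aggcaacaCCAGCAGGAGGCgctgcaga
FOCAD, kept, chr9:20885180-20885191, plus strand: actgatggCCAGCAGAGGGCgaagtttc
CRMP1, kept, chr4:5823515-5823526, plus strand: tggagcggCCACCAGGGGGCgccacgat
CD1B, not kept, chr1:158299781-158299792, minus strand: tgccttccCCAGAAGGTGGCagcagggc
SLC28A2, not kept, chr15:45560526-45560537, minus strand: tcccccagCCAGGAGAGGGCagcattga
MCU, not kept, chr10:74594176-74594187, minus strand: gaaactcaCCATCAGAGGGCacaacagt
SLC28A1, not kept, chr15:85478375-85478386, minus strand: tctcccagCCAGGAGAGGGCagcattga

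The coding-exon peaks were denser than the intron peaks. Coding sequence that passed the distance rule amounted to 26.9 Mb and held 32.3 peaks per Mb, whereas intron sequence under the same rule amounted to 1151 Mb and held 16.4 peaks per Mb. The density was 51.3 per Mb on chromosome 17, 46.4 on chromosome 12 and 39.8 on chromosome 19, against 8.07 on chromosome X. The copy number of each chromosome in these cells was not measured here. In the annotation used, 680 of the peaks lay in internal coding exons, 131 in the last, 27 in the first and 30 in transcripts with a single coding exon. Exon numbers count coding exons in the transcript with the longest coding sequence that holds the peak centre.

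The exons were small, with a median of 169.5 bp, and the peak centre lay a median of 43 bp from the nearest exon border. The median peak was 300.0 bp wide, so coding sequence filled a median of 58.2% of a peak, and 162 of the 868 peaks were wholly coding. The fold enrichment in control cells ran from 6.27 to 80.3 with a median of 27.3, against 28.7 over all control peaks. GC content within 250 bp of the centre had a median of 52.9%, against 45.5% over all control peaks and 44.1% in introns.

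After CBL0137, 558 of the 868 coding-exon peaks were kept (64.3%, interval 61.0 to 67.4%), beside 57.1% of all control peaks. The other 310 were not kept, beside 42.9% of all control peaks. Peaks with their centre in coding sequence were kept in 69 of 97 cases within 500 bp inside the distance rule and in 118 of 160 within 500 bp outside it. The other 771 coding-exon peaks, farther inside the rule, were kept in 489 cases (63.4%). The median GC contents of these groups were 60.7%, 62.0% and 51.9%. Of 18822 intron peaks 54.9% were kept, so the share was 9.44 percentage points higher on coding exons (interval 6.11 to 12.6). Where at least 50% of the peak had to be coding, this difference was 3.60 with an interval that held 0 (-0.492 to 7.58). Promoter peaks, gene 3′ end peaks and peaks on non-coding exon sequence were kept in 70.0%, 69.2% and 66.5% of cases. At equal GC content, a comparison added after the data were seen, the difference in kept share from non-coding exon sequence, coding exon minus other, was -7.15 percentage points (interval -11.0 to -3.25) and that from gene 3′ ends was -5.89 (interval -9.86 to -1.92). The difference from promoters was 2.00 with an interval that held 0 (-1.43 to 5.43). With fold enrichment matched as well, the differences from these classes were -3.77 (interval -7.46 to -0.0768), 0.673 (interval -3.05 to 4.39) and 1.73 (interval -1.32 to 4.78). With the stricter rule of an overlap above 50% of the larger peak, 55.4% of the coding-exon peaks were kept, beside 49.3% of all control peaks and 46.9% of intron peaks, a difference from introns of 8.49 percentage points (interval 5.09 to 11.8).

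Kept and not kept peaks differed in strength and width. Kept peaks had a median fold enrichment in control cells of 32.5 and a median width of 350 bp, against 19.8 and 200 bp for those not kept. The kept share rose in each of 10 groups of rising fold enrichment, from 18 of 82 coding-exon peaks in the weakest group to 80 of 85 in the strongest. In every one of these groups the share was higher on coding exons than in introns, by 2.58 to 12.5 percentage points. Weighted over the groups, the difference at equal fold enrichment was 8.78 percentage points (interval 5.94 to 11.6).

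**Figure D1:**
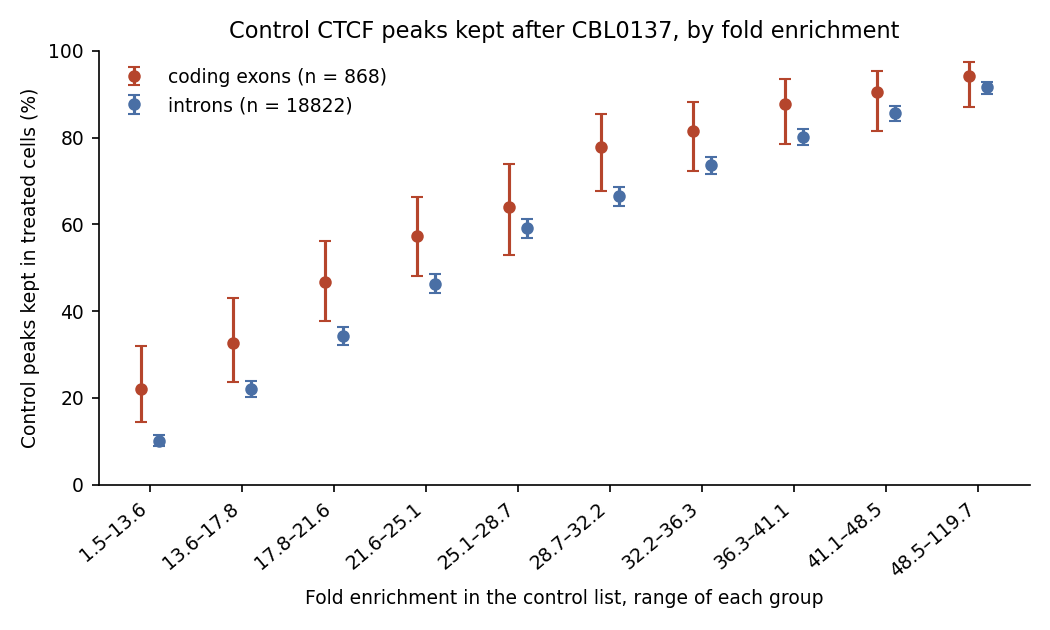
Share of control CTCF peaks kept in CBL0137-treated cells (%), in 10 groups of equal numbers of all control peaks by fold enrichment, for 868 coding-exon and 18822 intron peaks. Points are shares and bars 95% Wilson intervals, and the coding-exon point lies above the intron point in every group, from 22.0% against 10.1% in the weakest to 94.1% against 91.5% in the strongest.

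GC content moved with the fate of the coding-exon peaks. Its median was 56.9% around kept peaks and 46.2% around those not kept. Of the 170 peaks with a GC content under 40%, 68 were kept (40%, interval 32.9 to 47.5%), whereas of the 120 with 65% or more, 103 were kept (85.8%, interval 78.5 to 91.0%). Among coding-exon peaks of like fold enrichment, in 5 groups, the kept share was 19.1 percentage points higher where GC content was at least 55%. In the weakest of those groups 31 of 61 GC-rich peaks were kept, against 18 of 113 of the others, and in the strongest 104 of 111 against 55 of 63.

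The excess over introns depended on which features were matched. At equal GC content the difference in kept share, coding exon minus intron, was -1.24 percentage points (interval -4.36 to 1.87), and at equal fold enrichment and GC content together it was 3.27 (interval 0.476 to 6.06). Both comparisons were added after the data were seen.

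**Figure D2:**
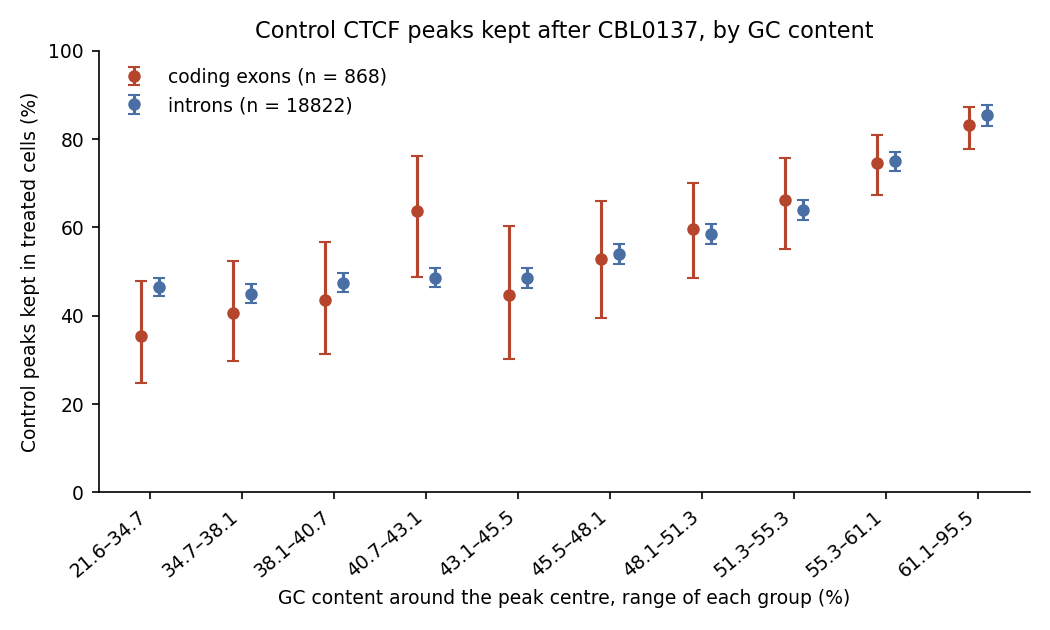
Share of control CTCF peaks kept in CBL0137-treated cells (%), in 10 groups by GC content within 250 bp of the peak centre, for coding-exon and intron peaks. Points are shares and bars 95% Wilson intervals, and the coding-exon and intron values rise together, from 35.5% and 46.5% in the group of lowest GC content to 83.1% and 85.5% in the highest.

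The place of a kept peak in each list is given as a rank, the percentile of fold enrichment within that list. The control list held 47470 peaks and the treated list 29558, so a difference between the ranks of a peak describes its place in lists of different length and is not a change in binding. For the kept peaks named here the ranks in both lists are therefore given side by side. MED15 encodes a subunit of the Mediator tail, and its peak in coding exon 6 of 18 had the highest fold enrichment of all coding-exon peaks, 80.3 in control cells and 59.2 in treated cells. Its rank was 99.8 in the control list and 95.1 in the treated list. PIK3R2, a regulatory subunit of phosphoinositide 3-kinase, had a fold enrichment of 79.5 in control cells and 76.7 in treated cells, with ranks of 99.8 and 99.3. The peak in ZNF219, a zinc finger transcription factor, lay wholly in a coding exon of 1426 bp, and its rank was 99.2 in control cells and 91.8 in treated cells.

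FOCAD, which encodes the focal adhesion protein focadhesin, had a fold enrichment of 67.3 in control cells at rank 98.9, and one of 28.9 in treated cells at rank 52.8. The peak in CXCL17, a chemokine gene of mucosal tissues, had ranks of 99.5 and 74.6, and that in the open reading frame gene C1orf216 had ranks of 99.5 and 78.0. The ranks in SLC35E2B, a solute carrier gene, were 99.1 and 93.9, and those in CCDC61, which encodes a coiled-coil protein of centrioles, were 98.9 and 90.3. Of these 8 strongest kept peaks, 5 stood above rank 90 in the treated list.

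The strongest peak that was not kept ranked 16 among the coding-exon peaks. It lay in coding exon 2 of 4 of SERPINA7, the gene of thyroxine-binding globulin, at chrX:105279151-105279400, with a fold enrichment of 61.1 and rank 97.5 in control cells. The next were in PACSIN1, an endocytic adaptor of neurons, with a fold enrichment of 52.7, and in TRIM46, which organises microtubules at the axon initial segment, with 50.3. PLEKHG4 had 50.1 and MATN4, a matrilin of the extracellular matrix, had 48.8. The peaks in CFAP299, a cilium and flagellum protein, and in ECI1, a mitochondrial isomerase of fatty acid oxidation, had 45.9 and 43.1. All of these and the MACF1 peak described with the repeated genes lay at sites of the list higher in control cells. They were picked as the strongest control peaks without a treated peak, so this is no separate evidence.

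At sites of the list higher in control cells lay 320 of the coding-exon peaks (36.9%, interval 33.7 to 40.1%), beside 51.2% of all control peaks and 53.8% of intron peaks. Promoters stood at 35.3%, gene 3′ ends at 40.05% and non-coding exon sequence at 44.7%. The difference from introns was -17.0 percentage points (interval -20.2 to -13.6), and -4.85 at equal GC content (interval -7.95 to -1.74). That from promoters was 1.61 (interval -1.82 to 5.14), and -8.61 at equal GC content (interval -11.97 to -5.24). Differences from gene 3′ ends and non-coding exon sequence were -3.185 (interval -7.42 to 1.09) and -7.85 (interval -11.98 to -3.64). At equal GC content these were -2.13 (interval -6.155 to 1.89) and -2.64 (interval -6.72 to 1.45). With fold enrichment matched as well, they were -4.70 (interval -8.80 to -0.599) and -3.02 (interval -7.02 to 0.978). The differences from introns and promoters were then -7.13 (interval -10.2 to -4.07) and -8.67 (interval -12.0 to -5.34). Of the 310 peaks that were not kept, 214 lay at such a site, as did 106 of the 558 that were kept. Fate and list come from the same libraries, so this split is no separate evidence. It was not made for the other classes or over all control peaks.

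At sites of the list higher in treated cells lay 68 of the coding-exon peaks (7.83%, interval 6.23 to 9.81%), beside 2.41% of all control peaks. The share was 1.80% in introns, 2.56% at gene 3′ ends, 3.17% on non-coding exon sequence and 6.15% at promoters. The difference from introns was 6.04 percentage points (interval 4.42 to 8.03), and it was 3.34 at equal GC content (interval 1.503 to 5.17) and 3.86 at equal fold enrichment and GC content (interval 2.08 to 5.65). The difference from promoters was 1.68 percentage points with an interval that held 0 (-0.0770 to 3.77), and 3.91 at equal GC content (interval 2.12 to 5.70).

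All 68 of these peaks were kept, and they lay in 68 genes. Their peaks in the treated list were wider in 62 cases, narrower in 1 and of the same width in 5. Rank was higher in the treated list at 62 of the 68. The authors' list chose these sites for a higher signal in treated cells, so their ranks and widths describe that choice and are no separate evidence. The GC content around them had a median of 62.7% and ran from 43.1 to 76.6%. None of the 170 peaks with a GC content under 40% lay at such a site (0%, interval up to 2.21%), against 28 of the 120 with 65% or more (23.3%, interval 16.7 to 31.7%).

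**Figure D3:**
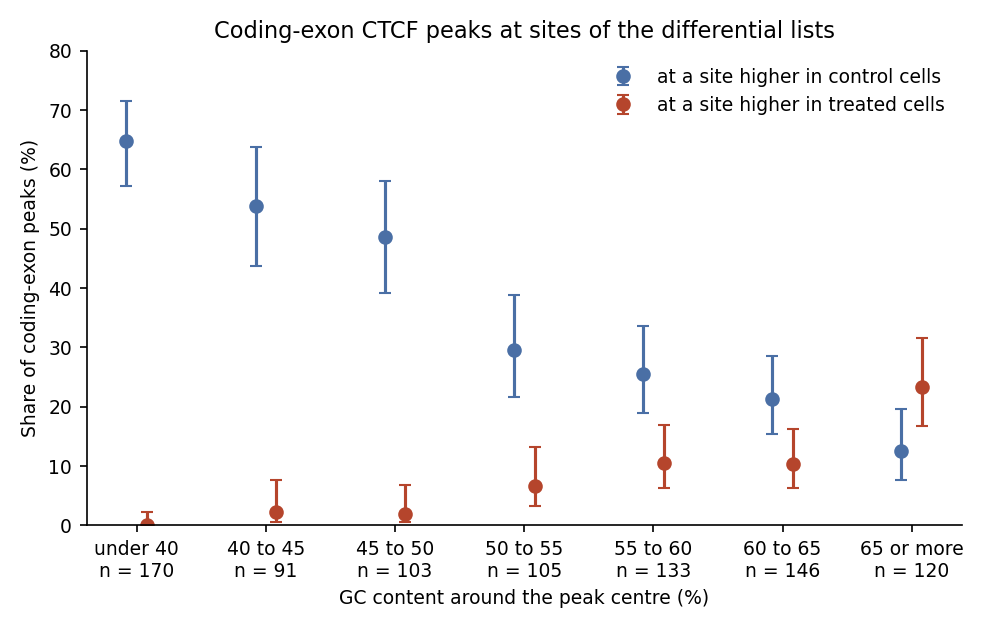
Share of the 868 coding-exon CTCF peaks (%) that overlapped a site of the list higher in control cells or of the list higher in treated cells, by GC content within 250 bp of the centre. Points are shares and bars 95% Wilson intervals, and the first share falls from 64.7% under 40% GC to 12.5% at 65% or more while the other runs from 0% to 23.3%.

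The 4 kept peaks with the largest difference in rank, treated minus control, lay in CAPN15, CYP26C1, VWA3B and ENG. The peak in CAPN15, a calpain family gene, at chr16:599651-599850 had a fold enrichment of 18.2 and rank 20.8 in control cells, and 51.8 and rank 90.0 in treated cells. CYP26C1, a cytochrome of retinoic acid breakdown, had ranks of 26.1 and 91.1, and VWA3B, which carries a von Willebrand factor A domain, had 35.2 and 95.9. ENG encodes endoglin, a co-receptor for transforming growth factor beta, and its peak had ranks of 14.8 and 74.3 and was 200 bp wide in control cells and 500 bp in treated cells. All 4 lay at sites higher in treated cells, with GC contents of 57.9 to 69.5%.

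At the other end stood PKHD1L1, a large membrane protein of the fibrocystin family, with ranks of 92.6 in the control list and 11.8 in the treated list, and INO80D, a subunit of the INO80 chromatin remodeller, with 82.9 and 7.52. FCRL2, an Fc receptor-like gene of B cells, had ranks of 95.6 and 21.5, and CACNA1B, the pore subunit of the N-type calcium channel, had 93.4 and 20.3. INO80D and FCRL2 lay at sites higher in control cells, and PKHD1L1 and CACNA1B at a site of neither list.

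To compare places over one set of peaks, the kept control peaks and the treated peaks they overlapped were also ranked among themselves, a step added after the data were seen. On that scale the 8 peaks just named differed in the same direction as over the whole lists. They were picked for the largest rank differences over those lists, so this is no separate evidence. The treated rank was higher than the control rank at 315 of the 558 kept coding-exon peaks (56.5%, interval 52.3 to 60.5%), at 50.5% of kept intron peaks and at 51.2% of all 27107 kept control peaks. The median difference was 4.07 on coding exons and 0.273 in introns. At 65% GC or more the treated rank was higher at 70 of 103 coding-exon peaks, and under 40% at 36 of 68. With ranks over the whole lists the median difference on coding exons was -5.68, so its sign turned with the set of peaks ranked. On that scale it was -10.8 in introns, -3.45 at promoters and -9.21 over all kept control peaks. The treated rank was then higher at 41.4% of kept coding-exon, 33.3% of intron and 42.5% of promoter peaks. Promoters were not summarised over the common set. At the 558 kept coding-exon peaks the treated peak was narrower than the control peak at 278 (49.8%), wider at 153 (27.4%) and of the same width at 127. All kept control peaks were narrower in 62.4% and wider in 15.0% of cases. Kept promoter peaks were narrower in 49.1% and wider in 26.4% of cases, and kept intron peaks in 66.5% and 12.5%. The widths of the kept coding-exon peaks moved with GC content. Under 40% GC, 56 of 68 kept peaks were narrower and 4 wider, and at 65% or more 24 of 103 were narrower and 58 wider.

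**Figure D4:**
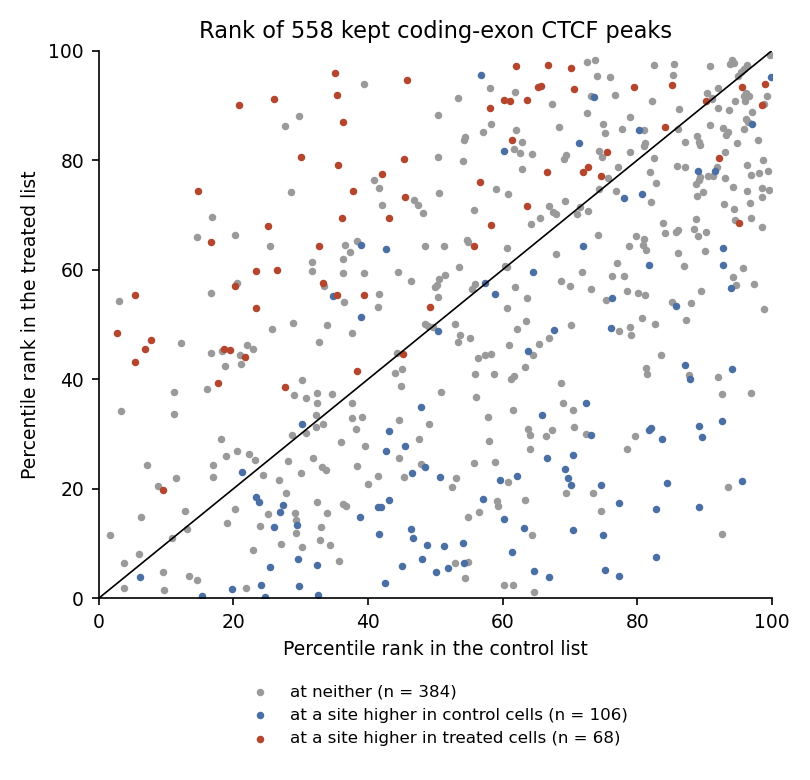
Percentile rank of fold enrichment in the treated list against that in the control list for the 558 kept coding-exon CTCF peaks, with a line of equal rank. Points are peaks, coloured by the differential list whose site they overlapped, and the lists held 47470 control and 29558 treated peaks. Of the 68 peaks at sites higher in treated cells 62 lie above the line.

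A core match was associated with a higher kept share. Of the 213 peaks with a match 79.8% were kept (interval 73.9 to 84.6%), against 59.2% of the 655 without (interval 55.4 to 62.9%). At like fold enrichment the difference was 12.6 percentage points. In the strongest of 5 groups of the coding-exon peaks by fold enrichment all 59 with a match were kept, as were 100 of 115 without. The share of peaks with a match did not differ between coding exons and introns beyond counting error, with a difference of 1.45 percentage points (interval -1.36 to 4.48).

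The bases at the free positions of the core differed between kept and not kept matches. All 4 free positions carried the bases of the CTCF core consensus, C or G, C or T, A or G, and G or T in order, in 94 of 170 kept matches (55.3%, interval 47.8 to 62.6%) and in 12 of 43 not kept (27.9%, interval 16.7 to 42.7%). The base after the core was a G, which makes a CpG with the last base of the core, in 79 kept matches (46.5%, interval 39.1 to 54.0%) and 8 not kept (18.6%, interval 9.74 to 32.6%). Among the sequences printed above it is a G in MED15, SLC35E2B, FOCAD and CRMP1, all kept. It is an A in C1orf216, also kept, and in the 4 not kept. The printed sequences are among the matches just counted, so they are no separate evidence. Neither contrast in bases was made at equal fold enrichment or GC content, which were both higher at kept coding-exon peaks than at those not kept. DNA methylation was not measured here.

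Read against the direction of the gene, 95 of the 170 wholly coding matches lay antisense and 75 sense. The antisense matches were kept in 84.2% (interval 75.6 to 90.2%) and the sense matches in 74.7% of cases (interval 63.8 to 83.1%), so the intervals overlapped. In all coding sequence that passed the distance rule the core occurred 1930 times, 1000 times sense and 930 times antisense. Only 194 of these matches (10.1%, interval 8.79 to 11.5%) lay under a control peak, 8.70% of the sense and 11.5% of the antisense ones. The codon frames were unequal, as 577 sense matches began at the last base of a codon and 503 antisense matches at the middle base when read along the gene, and a control peak lay over 8.67% and 11.1% of these.

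Pairs of related genes carried the same core. SLC28A1 and SLC28A2 encode concentrative nucleoside transporters, and their printed sequences shared 27 of 28 bases and the whole core. Their control fold enrichments were 29.4 and 31.0, neither peak was kept, and both lay at sites higher in control cells. The RNA helicase genes DDX19A and DDX19B shared all 28 bases, and both peaks were kept. The shared sequence is shown for comparison with the SLC28A pair.
DDX19A and DDX19B, kept, chr16:70404173-70404184 and chr16:70365672-70365683, plus strand: aaagaaggCCACCAGGTGGCtctgctga
The peak in DDX19A had rank 53.5 in control cells and 60.5 in treated cells, and that in DDX19B had 78.5 and 27.4. The authors removed reads with more than 1 alignment, so reads from identical stretches of related genes are missing from these values. These pairs were chosen after their sequences were seen.

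Of the 822 genes, 42 held 2 or more peaks, 88 in all. In 18 of these genes every peak was kept, in 6 none, and in 18 some, beside a kept share of 64.3% over all 868 coding-exon peaks. Whether peaks of the same gene shared a fate beyond that share was not tested. MACF1, which encodes a giant protein that links microtubules and actin, held 4 coding-exon peaks, with fold enrichments of 46.1, 38.5, 25.1 and 15.8, and none was kept. They spanned chr1:39568201-39876950, and all 4 lay at sites higher in control cells, at GC contents of 43.7 to 47.5%. No core match was found in any of them.

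EPOR, the receptor for erythropoietin, also held 4 coding-exon peaks, at chr19:11489001-11493650, and all were kept. Their control fold enrichments were 20.8, 25.8, 24.8 and 12.98 in order along the chromosome, at GC contents of 61.3 to 63.7%. The peak in the last coding exon lay at a site higher in treated cells and had ranks of 27.8 in the control list and 38.6 in the treated list. Its neighbour in coding exon 5 of 8 lay at a site higher in control cells and had ranks of 41.9 and 16.7. The remaining pair had ranks of 39.0 and 64.5, at a site higher in control cells, and of 8.77 and 20.4 at neither kind of site.

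The lowest control fold enrichments among kept peaks were 8.91 in IER2, an immediate-early gene, 9.72 in MYO1F, an unconventional myosin of leukocytes, 9.97 in HPS1, which acts in the making of lysosome-related organelles, and 10.2 in ABCA7, a lipid transporter. Their treated ranks were 11.5, 48.5, 54.4 and 34.2. The widest coding-exon peak, 850 bp, lay in CSTPP1, a gene of centriolar satellites, and was 800 bp in treated cells. Those in MLXIPL, a glucose-responsive transcription factor, WIPI1, an autophagy protein, and TCEA2, an elongation factor of RNA polymerase II, were 750, 750 and 700 bp wide and were kept.

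The coding-exon peaks were counted in lists of gene families. Motor protein genes, the myosins, kinesins and dyneins, held 17 peaks, of which 15 were kept, with a median fold enrichment of 30.2. The strongest was in MYO7A, a myosin of inner ear hair cells, at rank 97.1 in control cells and 86.5 in treated cells, and the stronger of the 2 not kept was in KIF24, a kinesin, with a fold enrichment of 24.5. All 5 peaks in plexin and semaphorin genes, which act in axon guidance, and all 4 in Notch pathway genes were kept. Their strongest were in SEMA3B, at ranks 91.6 and 78.0, and in DLL3, a Notch ligand, at ranks 95.5 and 93.3 and at a site higher in treated cells.

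Solute carrier genes held 17 peaks with 11 kept, and C2H2 zinc finger genes also held 17 with 11 kept. The zinc finger genes had 17.1 peaks per Mb of eligible coding sequence, below the 32.3 over all genes, and the strongest of them not kept was in ZNF318 with a fold enrichment of 29.0. Cation channel genes held 11 with 8 kept, among them CACNA1G, a T-type calcium channel, with ranks of 97.9 and 83.6. KCNJ8, a potassium channel, was not kept at 33.7. Chromatin regulator genes held 9 with 6 kept. The peak in ARID1B, a subunit of the BAF remodeller, had ranks of 92.8 and 60.9 and was 400 bp wide in control cells and 200 bp in treated cells.

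Smaller lists held 2 to 4 peaks each. Adhesion G-protein-coupled receptor genes had 2 of 4 kept, and the peak in ADGRE5 had ranks of 86.0 in the control list and 85.8 in the treated list. Other cadherins had 2 of 4 kept, among them CDHR1, a cadherin of photoreceptors, with fold enrichments of 45.9 and 45.6. All 3 keratin peaks, 2 of 3 olfactory receptor peaks and both mucin peaks were kept. In the large matrix proteins LAMA2, a laminin chain, was kept with ranks of 82.1 and 31.0, and FBN1, the gene of fibrillin, was not kept.

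Both peaks in the clustered protocadherin genes, which encode cell surface proteins of neurons, were kept and lay at sites higher in treated cells. The peak in PCDHGA6 lay in a first exon of 2424 bp and had ranks of 32.7 and 64.3. Neither of 2 peaks in the ADAMTS family of matrix proteases and related proteins was kept. No coding-exon peak lay in genes of collagens, HOX factors, tumour suppressors, or CTCF, cohesin and the histone chaperone FACT. The eligible coding sequence of these lists was 0.180, 0.0100, 0.0798 and 0.0437 Mb, on which the density of all coding sequence would give 5.79, 0.323, 2.57 and 1.41 peaks. The kept share of motor protein genes had an interval of 65.7 to 96.7%, beside 64.3% over all coding-exon peaks. It was picked from 15 lists, no difference between lists was tested, and the median GC content around these peaks was 57.5% against 52.9% over all.

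**Figure D5:**
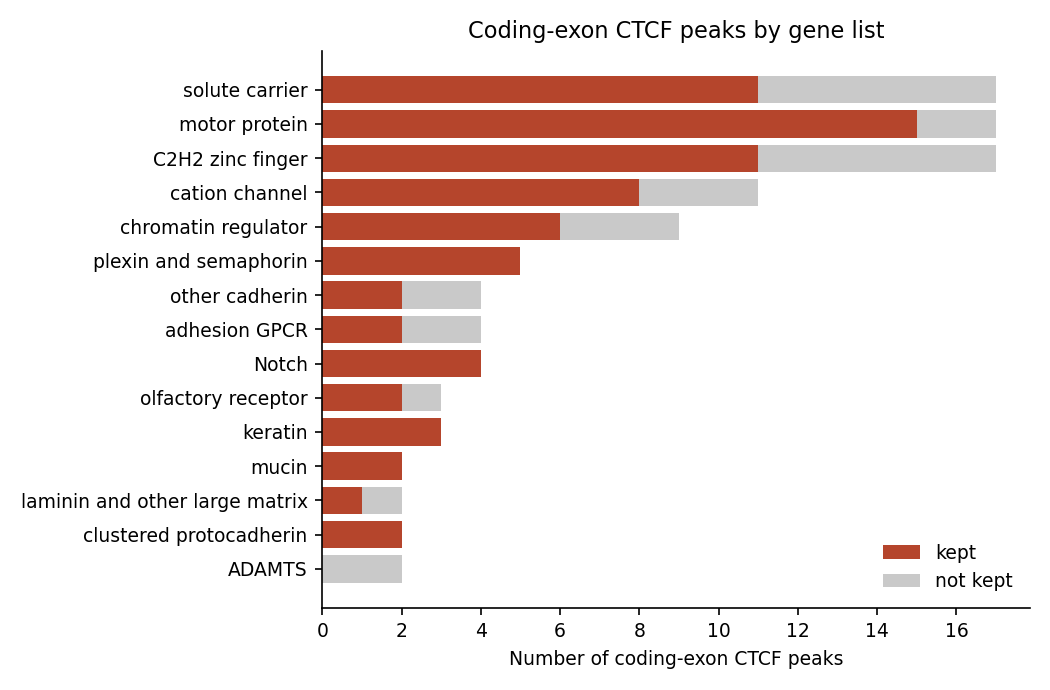
Number of control CTCF peaks on coding exons in each of 15 gene lists with at least 1 such peak, split into kept and not kept in CBL0137-treated cells. Bars start at 0, and the longest, of 17 peaks each, are those of solute carriers, motor proteins and C2H2 zinc finger genes.

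The kept share also varied with the kind of exon and the chromosome. It was 62.2% in internal coding exons (interval 58.5 to 65.8%), 71.0% in last coding exons (interval 62.7 to 78.1%) and 80% in transcripts with a single coding exon (interval 62.7 to 90.5%). The median GC contents of these kinds were 52.0%, 54.9% and 65.2%. Peaks with less than 50% of their length in coding sequence were kept in 76.5% of cases (interval 71.4 to 80.9%) and had a median width of 350 bp. Those with 50% or more but not all of their length in coding sequence were kept in 55.9% (interval 51.1 to 60.7%) at a median width of 250 bp, and the wholly coding ones in 62.3% (interval 54.7 to 69.4%) at 200 bp. On chromosomes 17 and 19, 60 of 72 and 54 of 64 peaks were kept, and on chromosomes 13 and X 5 of 14 and 3 of 8. The median GC contents around these peaks were 59.6%, 62.7%, 37.6% and 41.9%.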

How the data were processed

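CTCF ChIP-seq was analysed from peak lists of control and CBL0137-treated HT1080 cells. Reads were aligned by the authors to the hg19 genome in Bowtie2 2.2.3, multiply aligned reads were dropped, duplicates were filtered in SAMtools 1.5, and the authors called peaks with PePr on both replicates together. The deposited lists give per peak a fold enrichment, a ratio of ChIP over input computed by the authors, and a p-value with an FDR (q-value), also as deposited. The labels give a paired-end layout and the study's methods a single-end one. Of the authors' differential lists the positions alone were used, and their fold and p-value columns were not.

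Peaks were placed on GENCODE 44 genes lifted to GRCh37, and no control peak ran past a chromosome end of that genome (0). Read-through genes were passed over where another gene held the centre. Folds of different lists were never divided by each other. Ranks are percentiles within each list, and were recomputed among the peaks common to both lists, since the lists differ in length. Shares carry Wilson 95% intervals and differences Newcombe intervals. Differences at equal fold enrichment or GC content are averages over 10 groups, or 5 by 5 groups for both, weighted by coding-exon peaks, with a normal interval. Scripts used Python 3.11.15, pandas 2.3.3, scipy 1.17.1 and pysam 0.24.0 and were tested on simulated peaks. Genes were named by rule, the 8 strongest kept and not kept peaks, genes with 3 or more peaks, the 4 weakest kept, the 4 widest, the 4 largest rank differences in each direction and the strongest kept and not kept peak of each gene list. The peaks, gene lists and tests were chosen with earlier results of these data known. Other definitions of membership, overlap, list threshold, fold groups, motif and window were tried as alternatives. The single-replicate tracks and the reads were not used here, and a few items are not reported here.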

Additional observations from a re-analysis of the deposited data

How the results depend on the processing

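Of 73 values under other settings, 63 stayed within the main interval, or for the number of peaks within 1.5 times the main count. The number of coding-exon peaks ran from 585.0 to 1028. The kept share was 55.4% with an overlap above 50% of the larger peak, 60.8% with at least 50% of the control peak, 81.6% when the control list was shortened to the length of the treated list by fold enrichment, and 58.4% where at least 50% of the peak had to be coding. In that last case the difference from introns was 3.60 percentage points, with an interval that held 0 (-0.492 to 7.58). The same difference was -1.24 at equal GC content and 3.27 at equal fold enrichment and GC content, both added after seeing the data. At equal fold enrichment alone it ran from 6.66 to 9.90. With an FDR of at most 1e-05 in both lists 41.0% lay at sites higher in control cells. The degenerate core consensus with at most 1 mismatch was found at 50%. With 1 peak a gene, added after seeing the data, 64.8% were kept. The median rank difference of kept coding-exon peaks, -5.68 over the whole lists, was 4.07 among peaks common to both, also added then. The causes of these changes were not tested.

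No paired analysis was possible because each list pools both replicates, and for the same reason leaving out a replicate was not run. The depth behind each peak is not known from the lists, nor is the signal in treated cells at a peak that was not kept.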

Other observations

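Coding exons also held peaks that were found in treated cells alone. Of 682 CTCF peaks of treated cells on coding exons under the same rule, 144 overlapped no control peak (21.1%, interval 18.2 to 24.3%), against 8.07% of all treated peaks, 7.07% in introns and 16.3% at promoters. The difference from introns was 14.04 percentage points (interval 11.1 to 17.3). These 144 peaks had a median GC content of 64.2%, and 124 of them had at least 55%. Their median fold enrichment was 16.8, against 29.98 for the 538 with a control peak, and 66 lay at sites of the list higher in treated cells. A core match was found at 33 of them (22.9%, interval 16.8 to 30.4%). The strongest, leaving out chromosome 8, lay in GAREM2, an adaptor of growth factor signalling, at chr2:26407601-26407850 with a fold enrichment of 45.9 and rank 83.8. The next lay in IQSEC2, an exchange factor for ARF proteins at synapses, in TUBGCP6, a subunit of the gamma-tubulin ring complex, and in EFCAB8, with 40.5, 39.9 and 39.7. Those in the serine protease gene PRSS56, the lysophosphatidic acid receptor gene LPAR5, the adhesion gene ICAM5 and the hyaluronan-binding gene CEMIP had 38.7, 33.7, 33.3 and 33.1. All 8 lay at sites higher in treated cells. They were picked as the strongest treated peaks without a control peak, so this is no separate evidence. The part of GC content in the share of treated peaks without a control peak was not tested. This look at the treated list was added after the data were seen.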
